A study of Mus musculus with 18 samples.

Results

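Liver tumours of 2 mouse models were compared after the cells that express Prom1 had been depleted, to see which genes still differed between the models. The members are the 6 bulk RNA-seq libraries whose titles carry the code PXD, taken here as Prom1 depletion. They are 3 of the N-Ras+AKT model and 3 of the DEN+CCl4 model, out of 12 bulk libraries and 18 samples in all. Every bulk library carries the same strain label, Prom1C-L/+;Rosa26DTA/+. That genotype combines a tamoxifen-activated Cre made under the Prom1 promoter with a diphtheria toxin A gene that Cre switches on, so any cell type that expresses Prom1 is a target.

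In the DEN+CCl4 model, mice 14 days old received 1 mg/kg of the carcinogen DEN (N-nitrosodiethylamine), and from 8 weeks on the liver toxin carbon tetrachloride (CCl4) at 0.2 ml/kg, for 12 to 16 weeks. N-Ras+AKT mice were injected into the tail vein with pT3-EF1a-NRasV12 and pT3-EF1a-myr-AKT, at 20 µg each, together with sleeping beauty at 1.6 µg. In this route DNA enters hepatocytes, and both oncogenes are driven by the EF1a promoter. Tamoxifen (4 mg a dose) was started once tumours had formed, and tumours were collected 16 days after the last dose in the DEN+CCl4 model and 6 days after it in the N-Ras+AKT model. The model, the way the tumour was made and the time since the last dose cannot be told apart in this comparison. The 6 control libraries, 3 of each model, allow the same comparison of the models without depletion. For them the design text names littermates Prom1+/+;Rosa26DTA/+ and also a vehicle, olive oil, while the strain label gives the knock-in genotype, so what a control mouse lacked is not settled. The labels do not say that libraries of a group came from separate mice, and p-values then measure only the spread between these samples.

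DEN alkylates DNA and gives hepatocytes point mutations, while CCl4 is turned into a radical by pericentral cytochrome P450 and causes cycles of hepatocyte death and regrowth. N-Ras signals through RAF, MEK and ERK, and that kinase chain induces its own inhibitors, the Sprouty, Spred and Dusp proteins. Myristoylated AKT is held at the membrane and stays active. Active AKT keeps FOXO transcription factors out of the nucleus and is known in the liver for driving glucose use and fat synthesis. The product of Prom1, prominin-1 or CD133, sits in membrane protrusions, and cells carrying it have been studied in liver cancer as stem-like cells.

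Throughout, a level is in CPM (read counts scaled to the library's total) after TMM scaling of library sizes. Levels are given per library in the order DEN+CCl4 libraries 6, 9 and 10, then N-Ras+AKT libraries 6, 11 and 17. A difference is the log2 fold change of N-Ras+AKT over DEN+CCl4 with its standard error (SE), and a gene was called at an adjusted p under 0.05 in edgeR's quasi-likelihood test with Benjamini-Hochberg adjustment over 17013 genes. The change of a difference is the value after depletion minus the value in controls, tested in the same fit. Total counts of the 6 libraries ran from 31306617 to 42197526. Albumin (Alb), the main hepatocyte transcript, took 11% to 12.8% of counts in the DEN+CCl4 libraries and 5.02% to 5.51% in the N-Ras+AKT libraries. Along the first principal component of the 12 bulk libraries (45.6% of the variance) the DEN+CCl4 depletion libraries lay at −80.7 to −60 and the N-Ras+AKT depletion libraries at 27.2 to 56.6. In each group 1 library stood apart. DEN+CCl4 library 6 was at −84.1 on the third component, against −13.8 and −0.1, and N-Ras+AKT library 17 at −102.1 on the second, against −48.4 and −32.7. Results that depend on them are given with and without them.

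After depletion 5740 genes were called between the models. Of the genes tested, 3051 (17.9%) were higher in N-Ras+AKT tumours and 2689 (15.8%) were lower, and the difference was at least 2-fold for 1547 and 1045 of these. The shares of 17.9% and 15.8% are the background for each count of list members called after depletion. In controls 6901 genes were called, 3538 higher (20.8%) and 3363 lower (19.8%). The genes called with the same sign in both comparisons, which share no library, were 3070, or 53.5% of the calls after depletion and 44.5% of those in controls. Another 178 genes were called with opposite signs, 140 of them higher in N-Ras+AKT after depletion and lower in controls. The change of the difference was called for 1970 genes, 1357 upwards (7.98% of genes tested) and 613 downwards (3.6%). That count fell to 844 without DEN+CCl4 library 6 and N-Ras+AKT library 17, and to 939 without N-Ras+AKT library 17 alone. The 3 libraries of one model all lay on one side of the other 3 for 7926 genes (46.6%).

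**Figure D1:**
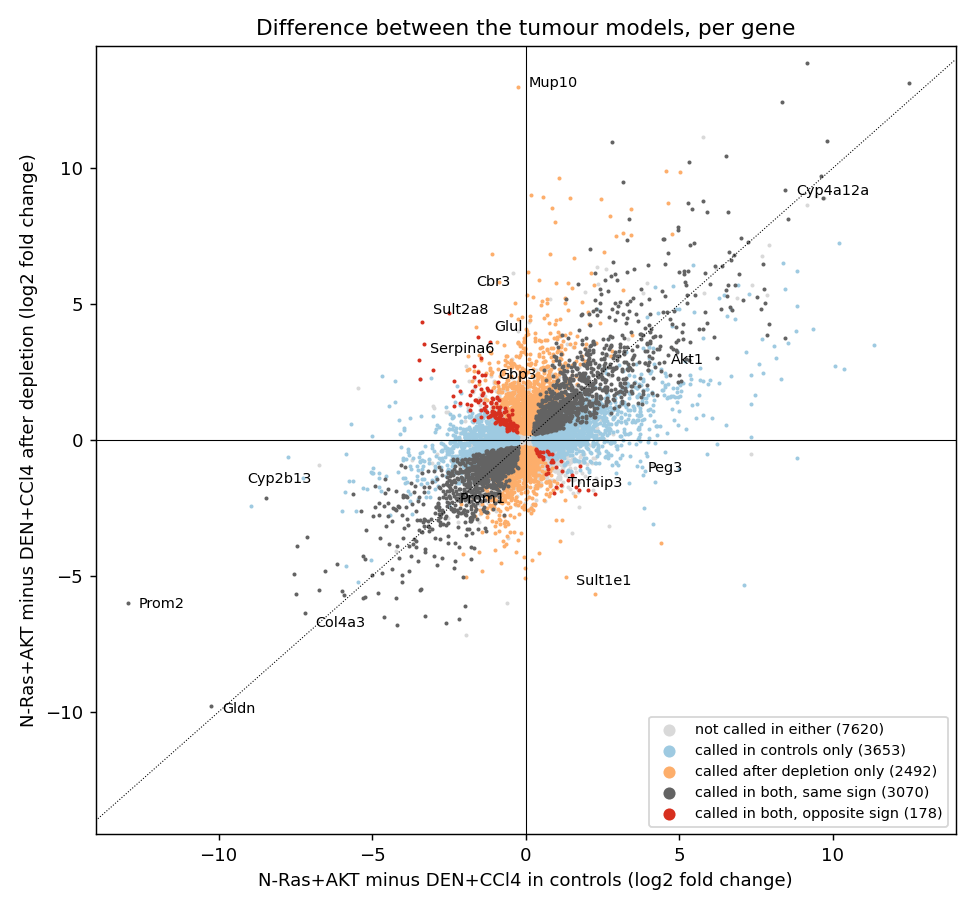
Each point is 1 of 17013 genes, with the log2 fold change of N-Ras+AKT over DEN+CCl4 in controls on the x axis and after depletion on the y axis, coloured by where it was called and with the dotted line marking equal values. The 3070 genes called with the same sign lie in the lower left and upper right, and the 178 with opposite signs, among them Serpina6 and Sult2a8, lie in the other corners, mostly the upper left.

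The injected and the targeted genes were examined first. Akt1, the kinase gene of the AKT plasmid's family, was at 48, 53.6 and 50 CPM in the DEN+CCl4 libraries and at 558, 614 and 501 CPM in the N-Ras+AKT libraries. The groups did not overlap, and the difference was 3.46 (SE 0.167, adjusted p = 9.31e-07). In controls it was 4.39, and the change of −0.93 was called (adjusted p = 0.0207), with Akt1 at 1100 ± 196 CPM (SD, n = 3) in N-Ras+AKT controls. Nras was at 21, 25.9 and 28.1 CPM in DEN+CCl4 and 44.9, 48.2 and 45.8 CPM in N-Ras+AKT libraries, a difference of 0.89 (SE 0.132, adjusted p = 0.000474) against 1.01 in controls. Akt1 and Nras were therefore higher in every N-Ras+AKT library after depletion. Reads of the injected sequences and of the mouse genes cannot be told apart in these counts. Relatives that were not injected differed less. Akt2 differed by −0.03 (adjusted p = 0.825) and Hras by 0.46 (adjusted p = 0.0329). The Hras call was lost without DEN+CCl4 library 6 (0.0972), N-Ras+AKT library 6 (0.0595) or 11 (0.124), without both libraries that stand apart (0.078) and in a fit of the 6 libraries alone (0.0839).

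Prom1 was at 17.4, 40.0 and 35.7 CPM in the DEN+CCl4 depletion libraries and at 5.81, 16.5 and 2.17 CPM in those of N-Ras+AKT. The lowest DEN+CCl4 library was close to the highest N-Ras+AKT library. The difference was −1.93 (SE 0.593, adjusted p = 0.0297), while in controls Prom1 was at 61.9 and 60.9 CPM on average and differed by −0.02 (adjusted p = 0.98). The change of the difference was not called (−1.90, adjusted p = 0.151). The call after depletion was lost when DEN+CCl4 library 9 (adjusted p = 0.0867) or 10 (0.0724) or N-Ras+AKT library 6 (0.102) was left out, with no filter on low counts (0.0994) and in a fit of the 6 libraries alone (0.0899). In bulk tumour RNA, fewer cells that express Prom1 and less Prom1 RNA per cell cannot be told apart. The remaining Prom1 level thus moved with the model in every result below, and its part in them was not tested.

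Among ERK target genes those called were all lower in N-Ras+AKT tumours, the model injected with N-Ras. Of 19 ERK output genes tested 10 were lower after depletion and none higher, with a median difference of −1.19 against 0.0328 over all genes. Spry4, an ERK-induced inhibitor of receptor signalling, was at 29.4, 30.0 and 28.2 CPM in DEN+CCl4 libraries and at 5.33, 5.46 and 4.69 CPM in N-Ras+AKT libraries. Its values hardly varied within a group, and it differed by −2.5 (SE 0.152, adjusted p = 3.05e-06). Spry1 (−1.74), Spred2 (−1.52) and Spred1 (−1.19), which block the same chain, were also lower, as was the immediate early factor Egr1 (−3.28, SE 0.452). In controls 7 of the 19 were lower and 4 higher, with a median of −0.19. The 4 higher in controls, Etv4, Myc, Ier3 and Spred3 (chosen after their values were seen), differed by 0.09, 0.39, 0.67 and 0.73 after depletion and were not called. Cyclin D1 (Ccnd1), the most abundant of the list, was at 42.4 CPM in DEN+CCl4 library 6 and 133 and 161 CPM in the other two, against 66.4 to 97.5 CPM in N-Ras+AKT libraries, and was not called.

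Several genes that FOXO factors switch on were lower in N-Ras+AKT tumours too. Of 20 genes of the PI3K, AKT and FOXO axis, 8 were lower and 2 higher after depletion (median −0.45; in controls 9 lower and 2 higher, median −0.47). Igfbp1, a liver-secreted IGF binding protein and a classical FOXO1 target, was at 3286, 2353 and 2500 CPM in DEN+CCl4 and at 115, 206 and 69.2 CPM in N-Ras+AKT libraries. The groups lay far apart (−4.38, SE 0.515, adjusted p = 0.000153), and the difference was larger than in controls (−1.77; change −2.61, adjusted p = 0.027). Pck1, which commits carbon to gluconeogenesis, differed by −1.78, the coactivator Ppargc1a by −1.80, Klf15 by −1.23 and Foxo1 itself by −1.02. Among the higher genes, the hexokinase gene Hk2, the form seen in many tumours, was at 2.30, 2.64 and 3.33 CPM against 24.8, 22.1 and 18.4 CPM (2.98, SE 0.255).

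Several of the largest differences towards DEN+CCl4 tumours were in genes nearly silent in the other model. Gldn (gliomedin, an adhesion protein known from peripheral nerve) was at 136, 190 and 161 CPM in DEN+CCl4 and at 0.0956, 0.374 and 0.0677 CPM in N-Ras+AKT libraries. The difference was −9.78 (SE 0.486, adjusted p = 1.47e-06), close to the −10.23 of the controls. Col4a3 was at 95.2, 92.5 and 121 CPM against 2.7, 0.749 and 0.338 CPM (−6.36, SE 0.571). Its neighbour Col4a4 was at 21.2, 17.5 and 18.2 CPM against 0.789, 0.264 and 0.180 CPM (−5.54, SE 0.399). The 2 genes code for partner chains of a basement membrane collagen and lie head to head in GRCm38 (mm10), Col4a4 at chr1:82448423-82586849 on the minus strand and Col4a3 at chr1:82586921-82722059 on the plus strand, with 72 bases between their starts. Both were also lower in N-Ras+AKT controls (−7.19 and −5.98).

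Other genes with large differences in this direction were not all nearly silent in N-Ras+AKT libraries, and a common role was not tested. They were the neuronal calcium channel gene Cacna1b (−6.82), the milk protein gene Csn3 (−5.79), the leukotriene enzyme gene Alox5 (−5.69), the kinesin gene Kif5c (−4.97), the trefoil factor gene Tff3 (−4.92), Mst1r (−4.90), which codes for the receptor of macrophage-stimulating protein, Wfdc15b (−4.80) and Ipcef1 (−4.55). Prom2, the paralog of Prom1, was at 8.78, 14.8 and 12.9 CPM in DEN+CCl4 and at 0.0239, 0.0661 and 0.474 CPM in N-Ras+AKT libraries (−5.98, SE 0.661). All of these were called in the same direction in controls. Others of the 15 largest were not called in controls. Sult1e1, an oestrogen sulfotransferase, was at 470, 242 and 113 CPM against 7.86, 16.1 and 0.857 CPM (−5.05, SE 0.945), with a difference of 1.3 in controls (adjusted p = 0.23) and a called change of −6.36 (adjusted p = 0.0144). Rgs7bp, a regulator of G protein signalling, had a called change too (−4.42 after depletion, 0.20 in controls, change −4.63, adjusted p = 0.00764).

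At the other end, 10 of the 15 genes with the largest differences towards N-Ras+AKT were Mup genes, the male-biased major urinary proteins, or Serpinb9 genes, a cluster of serpins related to the granzyme B inhibitor. Both families are near-identical copies whose reads may be split between them, so a single copy's value is uncertain. Mup17, Mup19, Mup10, Serpinb9e, Serpinb9f and A4gnt, a glycosyltransferase gene of gastric mucin, had 0 counts in all 3 DEN+CCl4 depletion libraries. Against 3 counts over that group, Mup17 was at least 1447-fold higher, Serpinb9e at least 879.7-fold, Mup10 at least 784.9-fold, Mup19 at least 543.6-fold, Serpinb9f at least 202.9-fold and A4gnt at least 197-fold. Mup17 was at 30.7, 20.6 and 84.5 CPM in the N-Ras+AKT libraries and Serpinb9e at 28.5, 26.1 and 27.9 CPM. Serpinb9e lost its call in some alternatives (adjusted p = 0.0525 with no filter on low counts, 0.0576 with limma voom and 0.0553 without both libraries that stand apart). Mup2, among the 10, was at 1.03 and 0.242 CPM in N-Ras+AKT libraries 6 and 11 and at 105 CPM in library 17. Its call was lost without library 17 (adjusted p = 0.16), with limma voom (0.383) and in other alternatives. The Mup7 call was lost with limma voom (0.204).

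Cyp4a12a, a male-specific fatty acid hydroxylase, was at 0.348, 0.316 and 0.493 CPM in DEN+CCl4 and at 207, 211 and 274 CPM in N-Ras+AKT libraries. All N-Ras+AKT libraries were far above all DEN+CCl4 libraries, by 9.21 (SE 0.77, adjusted p = 3.22e-05) after depletion and 8.46 in controls. Other genes differed on the same scale. Cidea, a lipid droplet protein gene, was at 0, 0.115 and 0.216 CPM against 59.8, 22.3 and 74.9 CPM (8.80, SE 0.707). Themis, known from T cell development, was at 0.0696, 0.0575 and 0.216 CPM against 28.1, 23.8 and 29.7 CPM (7.85, SE 0.773). Mogat1, which makes diacylglycerol, differed by 7.74, the mucin gene Muc13 by 7.42, and the tubulin gene Tubb2b by 6.63, each also called in controls. The protease inhibitor gene A2m was at 8.15 and 14.9 CPM in N-Ras+AKT libraries 6 and 11 but at 0.271 CPM in library 17, near the 0 to 0.259 CPM of DEN+CCl4 (5.71, SE 1.31), and was not called with limma voom (adjusted p = 0.218).

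**Figure D2:**
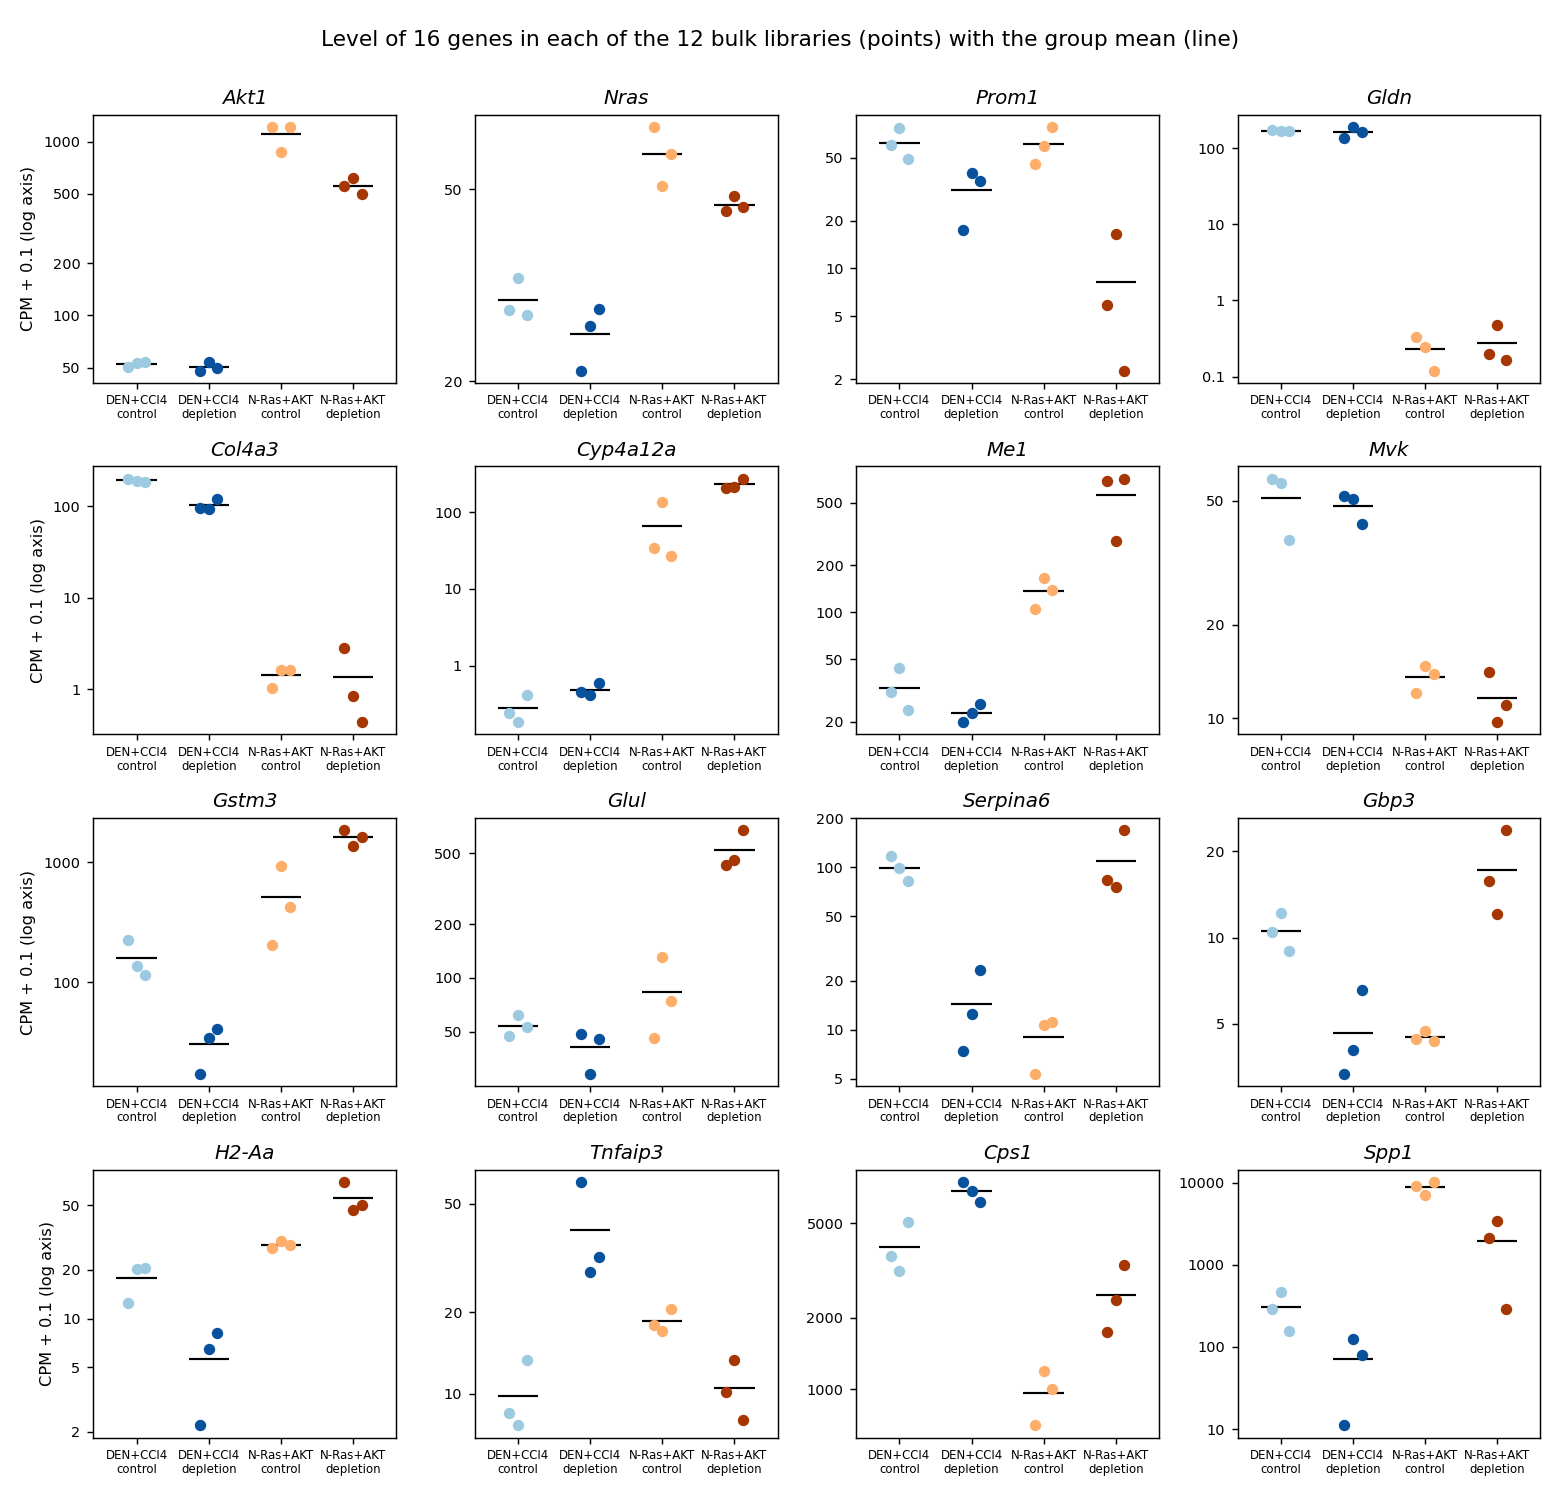
Each panel shows 1 gene in the 12 bulk libraries (points) with the mean of the 3 libraries of a group (line), in CPM plus 0.1 on a log axis, with groups on the x axis. Gldn and Cyp4a12a separate the models with and without depletion, Glul and H2-Aa were called after depletion and not in controls, and Serpina6 and Gbp3 change the order of the models between controls and depletion.

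Fat storage and fat synthesis genes were higher in N-Ras+AKT tumours. Of 26 genes 16 were higher and 1 lower after depletion (median 1.57), against 9 higher and 5 lower in controls (median 0.04), and the change was called upwards for 7 and downwards for none. Summed over the list, levels were 3365 to 6588 CPM in DEN+CCl4 and 16040 to 31420 CPM in N-Ras+AKT depletion libraries. Scd1, the desaturase that makes monounsaturated fat and the most abundant of the list, was at 373, 2288 and 1647 CPM against 21490, 10330 and 14580 CPM (3.43, SE 0.632, adjusted p = 0.00203). Me1, which supplies NADPH for fat synthesis, was at 19.7, 22.5 and 25.8 CPM against 690, 283 and 714 CPM (4.63, SE 0.383), with a called change of 2.57 (adjusted p = 0.0121). The droplet genes Cidec (6.22) and Plin2 (2.08) and the adipogenic factor Pparg (1.72) were higher in every N-Ras+AKT library and also in controls. Fasn, Elovl6 and Acacb (chosen after their values were seen) differed by 1.75, 2.57 and 1.61 after depletion and by −0.76, −0.02 and −0.52 in controls, where none of the 3 was called. The 1 lower gene was Srebf1 (−1.12, chosen after its values were seen), whose product activates many of the others.

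Cholesterol synthesis went the other way. Of 23 genes 16 were lower in N-Ras+AKT tumours after depletion and 16 in controls, 13 of them in both, and none was higher in either. The median difference was −1.09 after depletion and −0.94 in controls, and no change was called. Mvk, mevalonate kinase, was at 51.7, 50.4 and 41.9 CPM against 14.0, 9.62 and 10.9 CPM (−2.06, SE 0.189, adjusted p = 2.64e-05). Srebf2, the master activator of this pathway, was at 130, 109 and 92.8 CPM against 45.1, 33.2 and 38.8 CPM (−1.5, SE 0.151). Msmo1 (−2.02), Lss (−2.53) and Sqle (−1.44), enzymes of the sterol steps, followed. The summed level of 7154 to 8378 CPM in DEN+CCl4 libraries did not overlap the 3174 to 4227 CPM of N-Ras+AKT libraries.

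Genes of fatty acid oxidation differed after depletion more than in controls. Of 22 genes of this pathway and of its regulator PPARa, 15 were higher in N-Ras+AKT after depletion and none lower (median 0.98). In controls 4 were higher and 4 lower (median −0.09), and the change was called upwards for 11. Vnn1, a PPARa target, was at 27.9, 29.6 and 39.5 CPM against 78.0, 76.0 and 97.1 CPM (1.37, SE 0.182), with −0.14 in controls and a called change of 1.52 (adjusted p = 0.00933). The thioesterase genes Acot2 (2.93) and Acot1 (3.15), the carnitine carrier Slc25a20 (1.05) and the hormone gene Fgf21 (4.17) were higher both after depletion and in controls.

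Glucose genes split by direction. Of 24 glycolysis and hypoxia genes 7 were higher after depletion and 17 in controls, none was lower in either, and the median was 0.40 against 1.15 in controls. All 7 had also been called in controls. Among them Eno1 was at 335, 335 and 311 CPM against 819, 928 and 749 CPM (1.35, SE 0.129), and Gapdh at 1171, 1340 and 1191 CPM against 2471, 2680 and 2174 CPM (0.98, SE 0.166). Of 16 genes of gluconeogenesis, glycogen and fructose use, 7 were higher and 3 lower. Khk, which starts fructose breakdown, was at 75.0, 80.3 and 87.8 CPM against 290, 244 and 267 CPM (1.72, SE 0.159) and did not differ in controls (0.01, adjusted p = 0.976), a called change of 1.71 (adjusted p = 0.00545). The glycogen branching gene Gbe1 showed the same (1.57 after depletion, −0.28 in controls, change 1.86, adjusted p = 0.00935). The lower ones were Pck1, the tyrosine aminotransferase gene Tat (−2.19) and Slc37a4 (−0.67, chosen after its values were seen).

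Hepatocytes divide labour along the blood flow, with urea synthesis and gluconeogenesis near the portal vein and glutamine synthesis and bile acid synthesis near the central vein under Wnt control. The periportal list was lower in N-Ras+AKT tumours at both stages. Of 19 genes 15 were lower after depletion and 15 in controls, 13 in both, with medians of −1.29 and −1.31. Cps1, the first enzyme of the urea cycle, was at 7450, 6820 and 6121 CPM against 1736, 2381 and 3348 CPM (−1.45, SE 0.282, adjusted p = 0.00235). Nags, which makes the activator of Cps1, was at 59.1, 54.2 and 59.6 CPM against 28.8, 30.5 and 29.3 CPM (−0.96, SE 0.127), and the glutaminase gene Gls2 differed by −1.83. The 2 higher genes were Cyp2f2, a periportal P450, at 22.9, 11.8 and 18.2 CPM against 743, 489 and 1153 CPM (5.49, SE 0.606), and Otc (chosen after its values were seen). Otc, the urea cycle enzyme that follows Cps1, differed by 1.35 after depletion and by −2.13 in controls.

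Several pericentral genes were higher in N-Ras+AKT tumours after depletion. Of 22 pericentral and Wnt target genes 8 were higher and 4 lower after depletion, against 2 higher and 7 lower in controls, and the change was called upwards for 11 and downwards for none. Glul, glutamine synthetase, was at 48.3, 28.9 and 45.3 CPM against 428, 460 and 672 CPM (3.67, SE 0.375, adjusted p = 6.65e-05). Its levels did not overlap after depletion, while in controls the difference was 0.64 (adjusted p = 0.156) and the change was 3.03 (adjusted p = 0.00929). Rhbg, an ammonium transporter, was at 0.975, 0.460 and 0.987 CPM against 8.70, 8.08 and 8.84 CPM (3.41; change 3.42, adjusted p = 0.0094). Slc1a2, a glutamate transporter, was at 4.49, 2.67 and 4.50 CPM against 66.5, 97.6 and 126 CPM (4.64; change 2.80, adjusted p = 0.0173). Among 4 Wnt target genes of the list chosen after their values were seen, Notum and Tcf7 were lower (−1.20 and −1.18), and Axin2 and Lgr5 were not called (0.56 and 0.31).

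Bile acid genes were split. Of 22 genes 8 were higher and 4 lower after depletion, 11 were lower and none higher in controls, and the change was called upwards for 12. Cyp7a1, the rate-limiting enzyme of bile acid synthesis, was at 5.64, 15.3 and 21.1 CPM against 131, 132 and 245 CPM (3.59, SE 0.547), with a called change of 4.53 (adjusted p = 0.00986). Cyp8b1, which makes cholic acid, was at 0.383, 1.95 and 3.02 CPM against 106, 42.9 and 158 CPM (5.82, SE 0.841; change 6.68, adjusted p = 0.00996). The conjugating enzyme Baat (2.12) and the bile acid receptor Nr1h4 (0.96) were higher, while Nr0b2, the repressor of Cyp7a1, was at 39.0, 25.2 and 38.1 CPM against 8.15, 10.6 and 9.50 CPM (−1.86, SE 0.299).

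Genes that define the hepatocyte were lower in N-Ras+AKT tumours, though fewer of them than in controls. Of 29 tested 10 were lower and 4 higher after depletion, against 20 lower and 1 higher in controls (medians −0.55 and −1.22). Alb was at 119400, 136900 and 157300 CPM against 47010, 44420 and 52410 CPM (−1.52, SE 0.213), and all 10 lower genes, with Apoa1 (−1.73) and Serpina1a (−2.25) among them, were lower in controls too. Of 32 coagulation and complement genes 10 were lower and 5 higher, against 27 lower and 1 higher in controls, and the change was called upwards for 17. F11 (−1.80), Serpinf2 (−1.61) and Serpind1 (−1.38) were lower at both stages. The complement gene C9 was at 7.03, 19.2 and 35.7 CPM against 400, 476 and 612 CPM (4.58, SE 0.491), and the lectin gene Mbl2 differed by 2.84 after depletion and 0.18 in controls (change 2.66, adjusted p = 0.013).

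Genes of glutathione metabolism and of the antioxidant factor NRF2 were higher in N-Ras+AKT tumours after depletion. Of 21 tested 15 were higher and none lower (median 1.68), against 4 higher and 4 lower in controls (median −0.04), and the change was called upwards for 12. The summed level was 2170 to 2510 CPM in DEN+CCl4 and 7789 to 9156 CPM in N-Ras+AKT libraries. Gstm3, a glutathione transferase, was at 17.0, 34.1 and 40.1 CPM against 1858, 1381 and 1634 CPM (5.74, SE 0.599, adjusted p = 8.88e-05; change 4.03, adjusted p = 0.0117). Cbr3, a carbonyl reductase, was at 1.15, 1.01 and 1.33 CPM against 55.2, 45.5 and 40.4 CPM (5.34, SE 0.57; change 5.31, adjusted p = 0.00727). In controls Cbr3 was at 21.5 CPM in DEN+CCl4 and 22.0 CPM in N-Ras+AKT on average. Gclc, which limits glutathione synthesis, was at 139, 153 and 182 CPM against 586, 469 and 464 CPM (1.68, SE 0.193; change 1.39, adjusted p = 0.0128). Ephx1 (2.81), Gstm2 (2.83) and Gstm1 (2.33) were higher as well. Nqo1 (1.22, chosen after its values were seen) was called, and the NRF2 targets Hmox1 and Txnrd1 (0.04 and 0.54, chosen likewise) were not.

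Among 32 genes of drug metabolism 9 were higher and 5 lower, against 17.9% higher and 15.8% lower over all genes tested. Ces3a, a carboxylesterase, was at 1.74, 2.5 and 7.56 CPM against 226, 63.4 and 581 CPM (6.20, SE 0.85; change 6.13, adjusted p = 0.0111). Cyp2c38 differed by 5.08, Cyp2j5 by 2.02 and Cyp2d26 by −1.35. Cyp3a11, the most abundant, was at 3383, 2001 and 2708 CPM against 2788, 2900 and 5771 CPM and was not called. Members of these P450 families share reads, so single values are uncertain.

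Growth hormone pulses set the sex bias of liver genes through STAT5B. All 6 libraries carried Y-linked transcripts, with Kdm5d at 19 to 23 CPM, and Xist was between 0.0925 and 1.41 CPM. Of the 5 sex chromosome transcripts only Ddx3y was called, at 90.2, 92.0 and 92.4 CPM against 57.5, 58.8 and 65.2 CPM (−0.60, SE 0.112). Of 24 male-biased hepatocyte genes tested 19 were higher in N-Ras+AKT tumours after depletion and 1 lower (median 5.46), against 3 higher and 2 lower in controls (median 0.44), and the change was called upwards for 13. Mup10 and Elovl3 (the latter chosen after its values were seen) had 0 counts in the DEN+CCl4 depletion group. Members that pass the filter on low counts only through the other group had to come out higher, so the count and median are given as a description. Without N-Ras+AKT library 17, which had the highest values of most Mup genes, the median was 3.86 and 17 were higher. Mup22 was at 1.29, 0.316 and 2.07 CPM against 451, 145 and 764 CPM (8.54, SE 1.15; change 7.69, adjusted p = 0.0115), and Mup3 at 0.975, 7.10 and 6.26 CPM against 616, 542 and 1225 CPM (7.37, SE 0.869). Selenbp2, outside that family, was at 3.69, 17.2 and 11.8 CPM against 214, 118 and 169 CPM (3.93, SE 0.541; change 3.61, adjusted p = 0.0142). The 1 lower member, Serpina1e, is also the most abundant (2569, 6778 and 6994 CPM against 657, 163 and 1362 CPM, −2.90), and the summed levels of the list overlapped (3372 to 7877 CPM against 3406 to 6976 CPM). The Serpina1e call was lost without N-Ras+AKT library 6 (adjusted p = 0.0649) and with no filter on low counts (0.068).

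Female-biased genes were mixed. Of 21 tested 3 were higher and 5 lower, near the shares over all genes tested (17.9% higher, 15.8% lower). Cyp3a16 was at 18.3, 10.0 and 9.65 CPM against 0.263, 1.48 and 0.180 CPM (−4.29, SE 0.641) with no difference called in controls (−0.06; change −4.23, adjusted p = 0.0144). Cyp2b13 was at 6.55, 11.4 and 14.2 CPM against 1.74, 1.96 and 3.70 CPM (−2.12) and further apart in controls (−8.47; change 6.35, adjusted p = 0.0038). Cyp2a4, the most abundant, was not called after depletion (−0.71, adjusted p = 0.262). The growth hormone receptor gene Ghr was at 58.4, 91.8 and 115 CPM against 281, 230 and 394 CPM (1.77, SE 0.27; change 2.14, adjusted p = 0.0104). Igfals and Prlr, both hormone-dependent in liver, were higher after depletion (1.51 and 0.89) and lower in controls (−1.06 and −1.17). The Igfals call was lost without DEN+CCl4 library 6 (adjusted p = 0.0519), and that of Prlr without DEN+CCl4 library 6 (0.0777) or 9 (0.0649) or N-Ras+AKT library 17 (0.0949). Without both libraries that stand apart the values were 0.133 and 0.231.

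Interferons act through a complex of STAT proteins and IRF9, which binds a promoter element with the core GAAA, any 2 bases, GAAA, the interferon-stimulated response element. The models changed places in some of these genes. Of 37 genes of the interferon response and MHC class I, 21 were higher in N-Ras+AKT tumours after depletion and 2 lower (median 0.63), while 2 were higher and 17 lower in controls (median −0.47). The change was called upwards for 20 and downwards for none, and 10 genes were called with opposite signs. The promoters of 4 guanylate-binding protein and immunity-related GTPase genes are shown, because their genes were among the 5 of this list with the smallest p after depletion and each holds the element near its start. Each line gives the 100 bases before the transcription start, read in the direction of transcription, from RefSeq on GRCm38.p6. Matches to this core, or to its reverse complement TTTC, any 2 bases, TTTC, are in capitals. The printed stretches lie at chr3:142620563-142620662 (Gbp2, plus strand), chr3:142559944-142560043 (Gbp3, plus), chr11:58199456-58199555 (Igtp, plus) and chr11:49064213-49064312 (Tgtp2, minus).
Gbp2: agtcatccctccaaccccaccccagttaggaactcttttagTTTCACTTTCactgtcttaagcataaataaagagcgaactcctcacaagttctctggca
Gbp3: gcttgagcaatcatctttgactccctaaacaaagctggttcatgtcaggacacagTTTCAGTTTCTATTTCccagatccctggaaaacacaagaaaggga
Igtp: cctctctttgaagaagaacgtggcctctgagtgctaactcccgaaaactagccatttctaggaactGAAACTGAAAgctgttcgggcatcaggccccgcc
Tgtp2: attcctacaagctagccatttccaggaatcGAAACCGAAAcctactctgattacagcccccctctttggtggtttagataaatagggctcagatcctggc

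In the Gbp3 promoter 2 matches overlap, and the matches of Igtp and Tgtp2 are in the opposite orientation to those of Gbp2 and Gbp3. The motif was searched on both strands from 250 bases before to 50 bases after the start. It was found in 16 of the 28 list members with a promoter in the table (57.1%) and in 460 of all 11728 tested genes with one (3.92%). Of the 16 members with the motif 9 were higher in N-Ras+AKT after depletion, and of the 12 without it 8 were. A match is a description of these letters and not a measured binding site.

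Gbp3, which attacks the vacuoles of intracellular pathogens, was at 3.24, 3.94 and 6.48 CPM in DEN+CCl4 and at 15.7, 12.0 and 23.6 CPM in N-Ras+AKT libraries (1.91, SE 0.28, adjusted p = 0.000459). In controls the order was reversed (−1.25, adjusted p = 0.00392), a change of 3.16 (adjusted p = 0.00475). Igtp was at 18.8, 21.9 and 20.1 CPM against 44.4, 37.5 and 60.9 CPM (1.23; controls −0.83; change 2.07, adjusted p = 0.00545). Tgtp2 was at 1.22, 1.03 and 2.04 CPM against 6.93, 4.95 and 7.06 CPM (2.14; controls −0.90; change 3.04, adjusted p = 0.00475). These 3 GTPase genes thus reversed between controls and depletion, while Gbp2 differed by 1.99 after depletion and was not called in controls (−0.49, adjusted p = 0.162). Gbp6 was higher at both stages (3.87 and 1.18). The class I light chain gene B2m, most abundant of the list, was not called (0.46, adjusted p = 0.0633). N-Ras+AKT library 17 had the highest values of Gbp2, Gbp3, Gbp6, Igtp and Tgtp2 in its group, and without it and DEN+CCl4 library 6 the number of higher genes was 11.

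Among markers of immune cells, those of dendritic cells and macrophages were more often higher than lower, and other lists were split. Of 17 tested genes of dendritic cells and MHC class II 14 were higher after depletion and 1 lower (median 1.87), against 1 higher and 2 lower in controls. H2-Aa, a class II chain, was at 2.09, 6.38 and 8.08 CPM against 69.7, 46.8 and 50.3 CPM (3.33, SE 0.401, adjusted p = 0.00021; change 2.64, adjusted p = 0.0153), and the invariant chain gene Cd74 at 8.29, 27.1 and 27.4 CPM against 103, 65.2 and 88.0 CPM (2.02, SE 0.385). DEN+CCl4 library 6 had the lowest level of both. The summed level of the list was 30.6 to 73.4 CPM in DEN+CCl4 and 186 to 286 CPM in N-Ras+AKT libraries, and the 1 listed marker that was not tested was Cd209a. The part of these cells in the interferon result was not tested.

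T and NK cell genes were at very low levels. Of 28 listed 22 were tested, of which 15 were higher and 1 lower (median 2.47), against none higher and 2 lower in controls (median −0.52). Members that passed the filter on low counts only through the group where they are high had to differ, so nothing is read from this count. Cd3g was at 0.0348, 0.0575 and 0.185 CPM against 0.860, 0.683 and 1.15 CPM (3.22, SE 0.515; change 3.27, adjusted p = 0.0158), and Cd4 at 0.104, 0.259 and 0.123 CPM against 0.980, 0.749 and 1.17 CPM (2.53). Cd5, Foxp3, Ctla4, Pdcd1, Ncr1 and Ifng were not tested. The summed level overlapped, at 5.92 to 16.5 CPM against 15.3 to 30.1 CPM, and Zap70, the most abundant member, was the 1 lower gene. The Zap70 call was lost without DEN+CCl4 library 9 (adjusted p = 0.0846) or 10 (0.0698) or N-Ras+AKT library 6 (0.0818) or 11 (0.0807), with no filter on low counts (0.0778) and in the 6 libraries alone (0.0788). Without DEN+CCl4 library 6 and N-Ras+AKT library 17 only 7 were higher, and with a minimum of 1 CPM in 3 libraries only 4.

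B cell and plasma cell genes went in opposite directions. Of 19 tested 9 were higher and 5 lower. The higher were B cell surface genes such as Fcmr (4.17) and Cd22 (1.60), and the lower included the plasma cell products Igkc, at 52.5, 29.0 and 51.3 CPM against 9.85, 8.39 and 13.9 CPM (−2.04, SE 0.296), and Jchain (−2.41). Xbp1, which hepatocytes also express, was lower too (−0.91). The count of higher genes rests on the libraries that stand apart. It was 5 without either DEN+CCl4 library 6 or N-Ras+AKT library 17 and 0 without both, where the count of lower genes was 4. The summed level, mostly Xbp1 and Sdc1 (the latter chosen after its values were seen), was 518 to 594 CPM against 367 to 401 CPM.

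Macrophage genes were higher in N-Ras+AKT tumours. All 28 listed genes were tested, 17 were higher and 1 lower (median 0.90), against 8 higher and 3 lower in controls (median 0.22). Ctss, a lysosomal protease, was at 39.5, 39.0 and 42.9 CPM against 84.2, 75.5 and 85.0 CPM (1.01, SE 0.111, adjusted p = 7.83e-05), and the complement gene C1qa at 31.4, 29.3 and 33.8 CPM against 53.3, 57.1 and 64.8 CPM (0.89, SE 0.122; change 0.77, adjusted p = 0.0191). Tyrobp (1.21), C1qb (0.91) and Aif1 (1.85) were higher too. Spp1 (osteopontin), which bile duct and tumour cells also make, was at 11.0, 126 and 79.9 CPM against 2120, 3442 and 292 CPM (4.75, SE 1.01). The summed level of the list, which includes Spp1, was 558 to 746 CPM against 1416 to 4350 CPM. The number of higher genes was 11 without the 2 libraries that stand apart.

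NF-kB is held back by inhibitors that it induces itself. Of 24 tested inflammatory and NF-kB target genes 11 were lower and 4 higher after depletion, against 1 lower and 12 higher in controls, and the change was called downwards for 8 and upwards for none. For 5 of the 24 the sign was turned, lower after depletion and higher in controls. Tnfaip3 (A20), an inhibitor, was at 60.1, 27.9 and 31.9 CPM against 10.1, 13.3 and 7.94 CPM (−1.94, SE 0.312, adjusted p = 0.000955), with 0.92 in controls and a change of −2.85 (adjusted p = 0.00824). Nfkb2, a subunit, was at 21.5, 18.5 and 20.4 CPM against 11.3, 9.25 and 8.53 CPM (−1.05; controls 0.72; change −1.77, adjusted p = 0.00437), and the adhesion gene Icam1 at 53.9, 42.2 and 37.0 CPM against 24.4, 23.2 and 20.7 CPM (−0.96; controls 0.70; change −1.67, adjusted p = 0.0038). No library of one model overlapped the other for these 3. Relb and Nfkbie (chosen after their values were seen) also had opposite signs. Cxcl1, a neutrophil chemokine, was at 265, 124 and 150 CPM against 36.9, 34.9 and 25.7 CPM (−2.46, SE 0.293; change −2.42, adjusted p = 0.00935).

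Neutrophil markers were called after depletion at rates near those of all genes tested (17.9% higher, 15.8% lower). Of 16 tested 3 were higher and 2 lower, against 11 higher and 1 lower in controls, and Ly6g, Camp, Elane and Mpo were not tested. The higher gene Cxcr2 lost its call without N-Ras+AKT library 6 (adjusted p = 0.193) and in other alternatives. The lower gene Ngp lost its call without DEN+CCl4 library 10 (0.389) and in other alternatives. Il1b was at 0.627, 0.604 and 0.740 CPM against 4.88, 2.27 and 2.71 CPM (2.31, SE 0.426). Without N-Ras+AKT library 17 the number higher was 7. Of 28 acute phase genes 6 were higher and 9 lower. The serum amyloid genes Saa1 (4.24) and Saa2 (5.39) and the orosomucoid gene Orm2 (3.53) were higher at both stages, and Serpina3m was lower (−1.99), at 1050, 965 and 913 CPM against 263, 248 and 225 CPM. Saa1 was at 596 CPM in N-Ras+AKT library 17 and at 122 and 127 CPM in libraries 6 and 11. Without DEN+CCl4 library 6 and N-Ras+AKT library 17 the number of lower acute phase genes was 4.

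**Figure D3:**
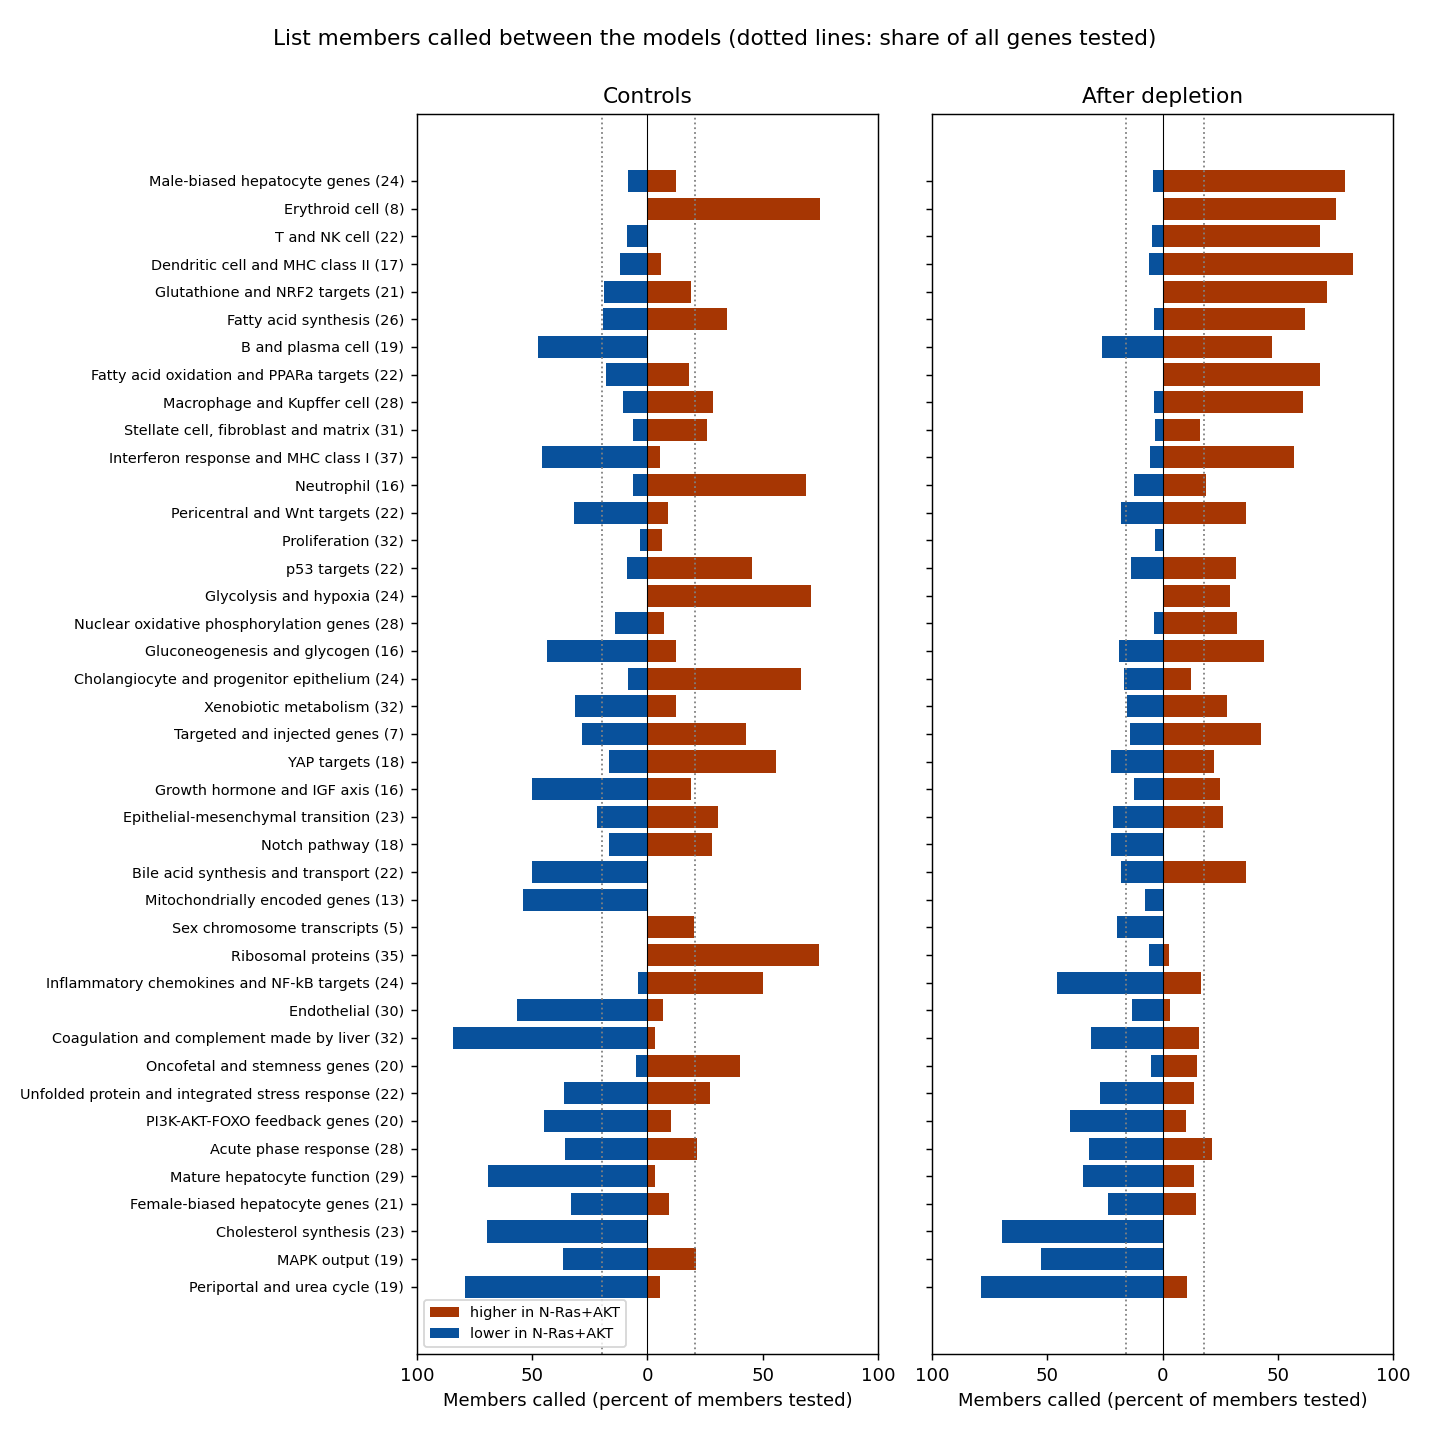
Bars give the percent of tested members of each gene list (number tested in brackets) called higher (right) or lower (left) in N-Ras+AKT than in DEN+CCl4, in controls and after depletion, with dotted lines at the share of all genes tested (20.8% and 19.8% in controls, 17.9% and 15.8% after depletion). Cholesterol and periportal genes extend to the left in both panels, and interferon, MHC class II and glutathione genes extend to the right after depletion.

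Bile duct and progenitor markers separated the models in controls far more than after depletion. Of 24 tested 16 were higher and 2 lower in controls (median 1.77), and 3 were higher and 4 lower after depletion (median 0.26). The change was called downwards for 3 and upwards for 1. Among the 4 lower genes were Tff3 (−4.92) and the targeted gene Prom1 itself (−1.93), whose call was lost in some alternatives. The 3 higher genes were Spp1, Sox4, at 5.26, 5.83 and 8.20 CPM against 44.6, 50 and 22.2 CPM (2.6, SE 0.303), and Cd24a, at 2.09, 3.16 and 3.52 CPM against 33.7, 49.4 and 5.98 CPM (3.34, SE 0.62). N-Ras+AKT library 17 was the lowest of its group for all 3. It was also lowest for the fetal liver gene Afp, at 4.99 CPM against 1136 and 595 CPM in libraries 6 and 11, and Afp was not called (2.88, adjusted p = 0.0933). Krt19 and Epcam, defining bile duct markers chosen after their values were seen, were at 0.485 and 0.895 CPM on average in DEN+CCl4 and at 1.5 and 2.15 CPM in N-Ras+AKT depletion libraries and were not called. Of 20 oncofetal and stemness genes 3 were higher and 1 lower, no more often than all genes tested (17.9% higher, 15.8% lower). Aldh1a1 was at 177, 207 and 271 CPM against 2316, 1881 and 2437 CPM (3.34, SE 0.3), with a called change of 1.40 (adjusted p = 0.0394).

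Few cell cycle genes were called between the models. Of 32 tested 1 was lower (Tk1, at 12.7, 18.2 and 16.6 CPM against 7.93, 7.93 and 7.76 CPM, −1.01) and none was higher, with a median of 0.44. The DEN+CCl4 libraries differed widely among themselves. Mki67, the proliferation marker, was at 2.12, 68.8 and 27.7 CPM there and at 42.4, 49.8 and 45.1 CPM in N-Ras+AKT libraries (0.47, adjusted p = 0.705). The summed level of the list ran from 84.9 to 418 CPM in DEN+CCl4 and from 291 to 329 CPM in N-Ras+AKT, and DEN+CCl4 library 6 was the lowest.

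Stress and signalling lists were mixed. Over all genes tested 17.9% were higher and 15.8% lower after depletion, and nothing is read from counts near those shares. Of 22 p53 targets 7 were higher and 3 lower. Plk2 was at 5.15, 7.53 and 7.59 CPM against 34.2, 36.5 and 23.1 CPM (2.21, SE 0.199) and Ccng1 differed by 1.38, while Btg2 was at 73.9, 104 and 96.5 CPM against 24.7, 24.3 and 15.1 CPM (−2.10, SE 0.306). Of 18 YAP targets tested 4 were higher, among them Ajuba (1.22), and 4 lower, among them the Hippo kinase gene Lats2 (−0.78). Of 18 Notch pathway genes tested 4 were lower, including the receptors Notch1 (−0.66) and Notch2 (−0.84) and the ligand Dll1 (−1.11), and none was higher. Of 22 genes of the unfolded protein and integrated stress response 6 were lower, with Herpud1 at 519, 360 and 477 CPM against 131, 171 and 160 CPM (−1.56, SE 0.189), and 3 were higher, among them Atf5 (1.26). Of 23 genes of epithelial-mesenchymal transition 6 were higher and 5 lower. E-cadherin (Cdh1) was at 180, 251 and 270 CPM against 68.3, 64.8 and 41.7 CPM (−2.0, SE 0.235), and Lgals1 at 1.67, 8.94 and 11.8 CPM against 109, 102 and 76.4 CPM (3.67, SE 0.532).

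Ribosomal protein genes differed in controls and little after depletion. Of 35 tested 26 were higher and none lower in controls (median 0.55), and 1 was higher and 2 lower after depletion (median −0.07), with no change called for any. Of 28 nuclear genes of oxidative phosphorylation 9 were higher and 1 lower (median 0.28), with Cycs at 69.6, 88.2 and 83.2 CPM against 146, 174 and 157 CPM (0.99, SE 0.128), but 2 were higher without both libraries that stand apart. Of 13 genes encoded in mitochondria mt-Nd5 differed by −0.57 (adjusted p = 0.0436) and none was higher. The mt-Nd5 call was lost without any 1 of the 6 depletion libraries (adjusted p from 0.0592 to 0.124), without DEN+CCl4 control 7, 8 or 13 or N-Ras+AKT control 3 (0.0501 to 0.0664), with no filter on low counts (0.0764), in the 6 libraries alone (0.0523) and without both libraries that stand apart (0.151).

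Stromal and endothelial markers were called after depletion no more often than all genes tested (17.9% higher, 15.8% lower). Of 31 stellate cell and matrix genes 5 were higher and 1 lower, and the summed level was 341 to 871 CPM in DEN+CCl4 and 545 to 1325 CPM in N-Ras+AKT libraries. Dcn (decorin) was at 60.5, 73.8 and 89.8 CPM against 192, 158 and 133 CPM (1.11, SE 0.249), and the glycoprotein gene Reln at 78.4, 174 and 212 CPM against 39.8, 28.2 and 12.7 CPM (−2.53). The number of higher genes was 8 without N-Ras+AKT library 17 and 10 without it and DEN+CCl4 library 6. Of 30 endothelial genes 1 was higher and 4 lower after depletion, against 2 higher and 17 lower in controls (medians −0.14 and −1.47), and the change was called upwards for 13. Stab1, a sinusoidal scavenger receptor, was at 55.0, 58.6 and 63.7 CPM against 29.5, 23.6 and 27.3 CPM (−1.14, SE 0.112), and Vwf, of larger vessels, at 10.9, 12.3 and 12.7 CPM against 3.35, 4.47 and 2.71 CPM (−1.77, SE 0.238; change −1.51, adjusted p = 0.0173).

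Red cell transcripts were higher in N-Ras+AKT tumours. Of 8 tested 6 were higher after depletion and 6 in controls, and none was lower. The globin gene Hbb-bs was at 0.731, 1.90 and 7.62 CPM against 66.3, 144 and 83.4 CPM (4.83, SE 0.804), with 2.81 in controls. Globin copies share reads. Epb42 was among the listed genes not tested, and the summed level was 67.7 to 148 CPM against 250 to 434 CPM. Of 24 markers of other tissues 4 had enough counts to test. Fabp2, an intestinal fatty acid carrier, was at 2.54, 4.31 and 4.81 CPM against 50, 49.3 and 35.2 CPM (3.52, SE 0.264), and Cela1 was lower (−1.45).

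**Figure D4:**
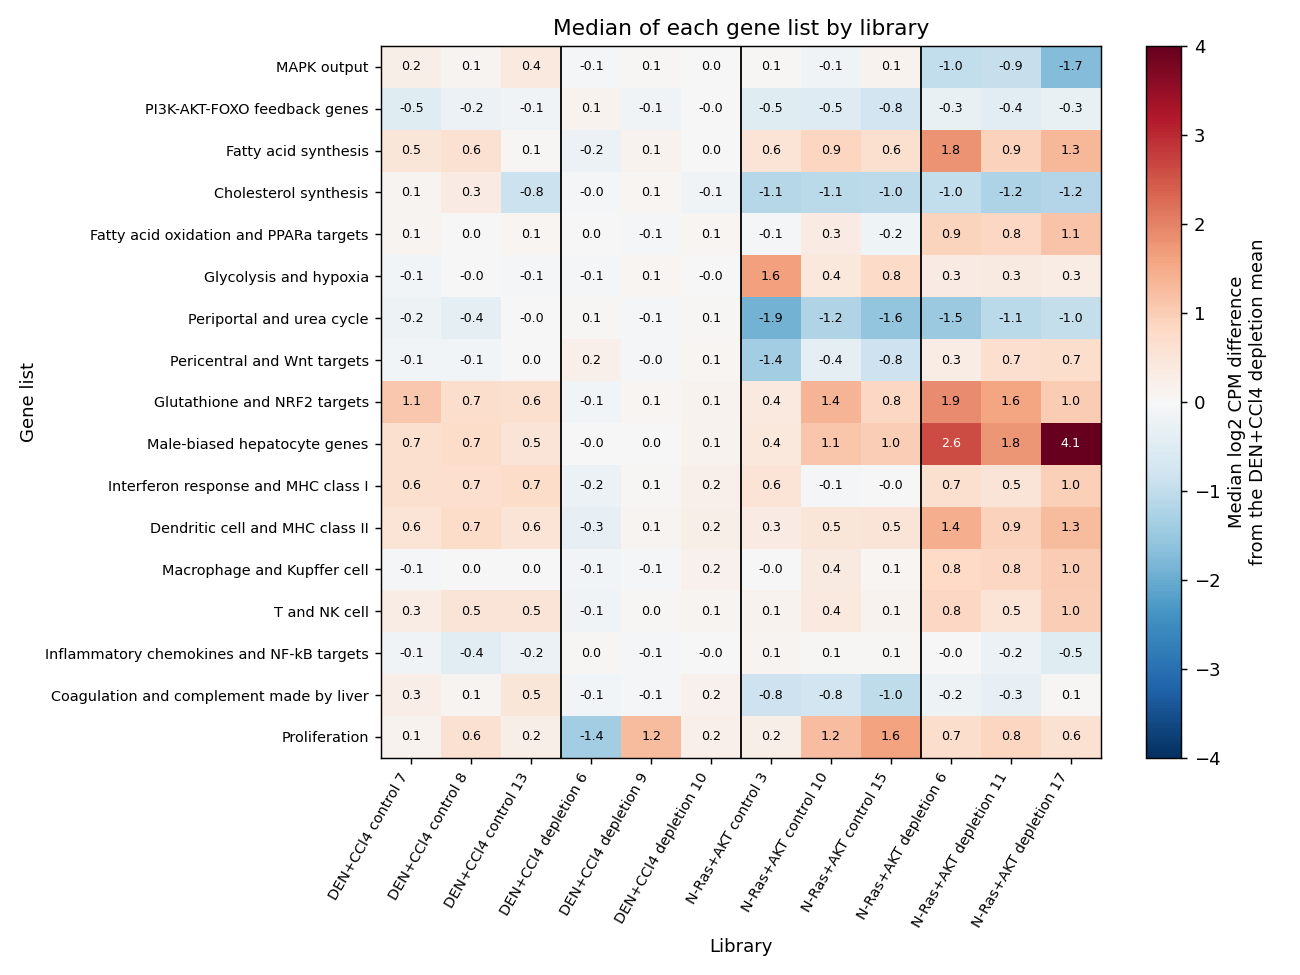
Each cell is the median over a gene list (y axis) in 1 of the 12 bulk libraries (x axis) of log2 CPM, with 0.5 added, minus the mean of the 3 DEN+CCl4 depletion libraries. The 3 N-Ras+AKT depletion libraries have the same sign for MAPK output (−1.73 to −0.92), cholesterol synthesis (−1.24 to −0.97) and glutathione genes (1.01 to 1.90), and the DEN+CCl4 depletion libraries differ most among themselves in proliferation (−1.38 to 1.25).

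The genes whose difference between the models changed most were examined last. Serpina6, the corticosteroid-binding globulin of plasma, was at 7.28, 12.4 and 23.1 CPM in DEN+CCl4 and at 83.6, 75.4 and 169 CPM in N-Ras+AKT depletion libraries (2.94, SE 0.469). In controls it was at 99.6 CPM in DEN+CCl4 and 8.94 CPM in N-Ras+AKT on average (−3.48, adjusted p = 0.000381), so the order of the models was turned, a change of 6.42 (adjusted p = 0.0038). Sult2a8, a bile acid sulfotransferase, was turned too, at 2.12, 3.31 and 3.67 CPM against 51.8, 8.72 and 127 CPM (4.36; controls −3.36; change 7.72, adjusted p = 0.00984). The difference of Tff3 narrowed from −7.56 to −4.92 (change 2.64, adjusted p = 0.0151).

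In the other direction, 7 of the 10 genes with the largest downward change were higher in N-Ras+AKT controls and no longer called after depletion. Peg3, an imprinted gene, was at 63.9, 31.3 and 21.9 CPM against 12.6, 34.4 and 12.9 CPM after depletion (−0.96, adjusted p = 0.146) and differed by 3.62 in controls (change −4.58, adjusted p = 0.00926). Igfbp3, an IGF carrier, was at 69.6, 58.1 and 22.4 CPM against 64.2, 70.1 and 8.35 CPM (−0.07) and differed by 3.98 in controls. Arg2, the mitochondrial arginase, was at 43.3 CPM in DEN+CCl4 library 6 and 3.28 and 1.05 CPM in the other two, against 0.496 to 2.82 CPM in N-Ras+AKT libraries (−3.10, adjusted p = 0.0555). The others were Chil3, Kcnma1, Sgpp2 and Gm14226, with differences of −0.58, −1.15, −0.60 and 0.80 after depletion. Without DEN+CCl4 control 7 the changes of Igfbp3, Arg2, Chil3, Kcnma1, Sgpp2 and Gm14226 were not called (adjusted p from 0.0511 to 0.097), and other alternatives also ended calls among these 6.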

How the data were processed

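Poly(A) RNA of liver tumours was sequenced in bulk, and the authors deposited 1 table of read counts per gene for 12 bulk libraries. Single-cell data (6 samples) are not used here. The mm10 build and the tools RSEM 1.3.1, Cell Ranger 3.0.2 and STAR 2.7.3 are named, per the submitters' processing notes; which of them made the counts is not given in the sources used here. Of 55335 gene identifiers 55154 matched GENCODE M21 and 181 (0.0064% of counts) did not.

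The counts were fitted in edgeR 4.0.16 (R 4.3.3) by a quasi-likelihood model with 1 mean for each of the 4 groups of 3 libraries, TMM scaling and edgeR's default filter on low counts, which left 17013 genes and 8 residual degrees of freedom. p-values were adjusted by Benjamini-Hochberg over all 17013 genes. A fold against a group with 0 counts is a bound set by 3 counts over that group. Values of single copies in multigene families whose reads may be split (globins, Sult, Cyp4a, Cyp3a, Cyp2b, Serpinb9 and Mup) are uncertain. Alternatives used limma 3.58.1 and DESeq2 1.42.0, DESeq2 size factors, other filters, the 6 libraries alone and libraries left out. Principal components used log2 CPM with a prior count of 2. The code was tested on simulated counts. Figures were drawn with matplotlib 3.10.9.

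Named genes were the targeted and injected genes and their relatives, the sex chromosome transcripts, the 15 largest called differences in each direction with groups that did not overlap and at least 5 CPM, the 10 largest in each direction called in both comparisons, the 10 largest called changes in each direction, and from each list the 5 members with the smallest p and the most abundant member. The members and lists were chosen with earlier results of these data known. Promoters were taken from RefSeq (GRCm38.p6). Some genes that the rule names are not reported here.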

Additional observations from a re-analysis of the deposited data

Results flagged for a closer look

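The difference between the models changed with depletion for 1970 genes by a test of that change in edgeR. Each value here is such a change on the log2 scale, the difference after depletion minus that in controls.

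The upward changes were 8.85 for Mup11, 7.72 for Sult2a8, 7.69 for Mup22, 6.68 for Cyp8b1, 6.43 for Mup14, 6.42 for Serpina6, 6.35 for Cyp2b13, 2.64 for Tff3 and 0.48 for Akt2. Mup10 (13.21), A4gnt (8.15) and Prom2 (6.98) had a group with 0 counts, so their values are fitted and are no bounds. The downward changes were −7.26 for Arg2, −6.36 for Sult1e1, −5.03 for Kcnma1, −4.74 for Gm14226, −4.63 for Rgs7bp, −4.58 for Peg3, −4.54 for Chil3, −4.23 for Cyp3a16, −4.06 for Igfbp3, −4.0 for Sgpp2 and −0.93 for Akt1.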

How the results depend on the processing

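Among 269 named results on the difference after depletion, 224 kept their call in every alternative that tested the gene. So did 10 of 20 on the change of the difference. No result called in the main fit or in an alternative had the opposite sign in the other. A change of sign in results called in neither was not counted. The change calls of Arg2, Chil3, Gm14226, Igfbp3, Kcnma1, Mup10, Mup14, Prom2, Sgpp2 and A4gnt were lost in at least 1 alternative. Genes called after depletion numbered 5740, and stayed within 1.5 times of that in the alternatives. The 1970 genes with a called change (1357 upwards, 613 downwards) depended on single libraries. Leaving out 1 library in turn gave 895 to 2326 genes, 656 to 1603 upwards and 190 to 835 downwards. The total was 895, 1130 and 1181 without DEN+CCl4 controls 7, 8 and 13, 986 without DEN+CCl4 depletion library 9, 1176 and 1060 without N-Ras+AKT controls 3 and 15, and 1232 and 939 without N-Ras+AKT depletion libraries 6 and 17. Without both libraries that stand apart it was 844 (605 upwards, 239 downwards), with fewer samples in the fit. DESeq2 called 1117 downward changes; the cause was not tested. No paired analysis was possible because the labels pair no library of one model with a library of the other. The depletion groups share 1 replicate number (6), which is not said to mark a pair.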
